A study of Mus musculus with 8 samples.

Results

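The genes described here are 48 mouse genes of nuclear transport, chosen by symbol: 28 that encode proteins of the nuclear pore complex and 20 that encode soluble transport receptors. Values were found for 47 of the 48, among 21553 genes with values, and comprised 27 pore genes and all 20 transport genes. Nup62 was not analysed here. The study injected mRNA into mouse embryos of B6CBA F1 crosses at the 1-cell stage and sequenced polyA RNA of whole embryos 5 h later, at the 1-cell stage, or 24 h later, at the 2-cell stage. The injected mRNA encoded Snrpb, Snrpd2, both together, or the fluorescent protein mCherry as the control. The study's title concerns a programmed splicing failure while the zygotic genome is activated. The products of Snrpb and Snrpd2 are Sm proteins, part of the ring at the core of the spliceosome's small nuclear ribonucleoproteins, and libraries of embryos that received either or both are called Sm libraries below. Each of the 8 conditions was 1 library from a pool of 40 embryos taken from 3 experiments. All embryos, controls included, were injected, and no uninjected group was used here. Because no condition had a second library, p-values for the stage, and for each injection over both stages, rest on how the stage change varied between the 4 injections, and those for the injection at a single stage on the spread between Sm libraries.

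Nuclear pore complexes are the gates through which molecules pass between nucleus and cytoplasm. An outer ring (the Y complex) and an inner ring form the scaffold, membrane proteins anchor it, nucleoporins with phenylalanine-glycine repeats fill the central channel, and filaments face the cytoplasm while a basket faces the nucleus. Importins carry cargo in and exportins carry it out. The small GTPase Ran, in its GTP form, releases cargo from importins and is needed for exportins to hold theirs. Importin alpha proteins are adaptors that read the classical nuclear localization signal and bind importin beta, and the early mouse embryo starts from a store of such mRNAs made in the oocyte.

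Libraries held 39492734 to 59979046 reads assigned to genes. Snrpb mRNA stood at 7.96 cRPKM in the 1-cell mCherry library and at 43850 in the library labelled Snrpb. Snrpd2 stood at 1.89 and 17926 in the corresponding pair, and in both of these libraries the injected mRNA was the one on the label. At the 2-cell stage less was left, with Snrpb at 1704 cRPKM in its own library and 876 in the combined library, against 17.4 with mCherry. Snrpd2 was at 5240 and 4726 in the corresponding libraries, against 10.6 with mCherry. Values in cRPKM are reads scaled to a corrected gene length and to the library total, as deposited by the authors. The summed cRPKM of 9 oocyte and embryo markers was 5321 to 6298 in all libraries. Of 17 cumulus and granulosa markers, cells that surround the oocyte, the sum was 26.1 in the 1-cell mCherry library, 35.6 to 50.9 in the 1-cell Sm libraries and 20.8 to 28.8 at the 2-cell stage, and Ereg was at 0 in all 8. This sum joined genes that moved in opposite directions. Cyp19a1 had means of 17.7 and 3.9 cRPKM at the 1-cell and 2-cell stages, Nr5a2 of 3.96 and 7.11 and Foxl2 of 0.04 and 4.59. Of 7 blood, fibroblast and oviduct markers the sum was 0.43 to 0.62 at the 1-cell and 14.8 to 26.5 at the 2-cell stage, where Epcam (9.39 to 13.9) and Lyz2 (3.76 to 14.7) made up nearly all of it. Of 7 sperm markers the sum was 28.9 to 46.9 and 157 to 189, nearly all of it Odf2 (24.6 to 42.4 and 153 to 186), while Prm2 had means of 3.61 and 2.78. The part of these markers in the results on the members was not tested. All levels are relative to the total of a pooled library, so that fewer cells of a type and less RNA per cell cannot be told apart. They are levels of polyA RNA, so that a change in the amount of an mRNA and a change in its polyA tail cannot be told apart either.

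Promoter sequences from RefSeq (GRCm38.p6, 250 bases before to 50 bases after the start of the gene) were matched for 37 of the 47 genes with values, with the first entry used for a gene that has several. Cse1l, Kpna1, Kpna3, Kpna6, Nup35, Nup43, Nup85, Seh1l, Xpo4 and Xpo7 were not matched. The promoters shown are those of the pore genes with the largest falls and of the transport genes with the largest rises among members with a single entry in the table: Nup107 (chr10:117792656-117792955), which encodes an outer ring subunit, and Nup88 (chr11:70969924-70970223), of the cytoplasmic face, fell between the stages, and Kpna4 (chr3:69127043-69127342), an importin alpha, and Xpot (chr10:121626283-121626582), the tRNA exportin, rose. All 4 windows lie on the minus strand and are written 5′ to 3′ along the gene. Capitals mark matches on either strand to the TATA box (TATAAA), the CCAAT box, the GC box (GGGCGG), the ETS-type sequence CCGGAAG or the palindromic element bound by NRF1 in its simplest form, and neighbouring or overlapping matches run together.
Nup107: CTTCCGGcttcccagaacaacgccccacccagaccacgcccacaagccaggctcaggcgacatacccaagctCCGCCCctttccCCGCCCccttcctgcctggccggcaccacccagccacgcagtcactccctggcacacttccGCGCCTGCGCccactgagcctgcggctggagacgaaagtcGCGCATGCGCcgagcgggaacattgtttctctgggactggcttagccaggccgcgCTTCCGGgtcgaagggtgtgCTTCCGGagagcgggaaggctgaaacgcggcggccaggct
Nup88: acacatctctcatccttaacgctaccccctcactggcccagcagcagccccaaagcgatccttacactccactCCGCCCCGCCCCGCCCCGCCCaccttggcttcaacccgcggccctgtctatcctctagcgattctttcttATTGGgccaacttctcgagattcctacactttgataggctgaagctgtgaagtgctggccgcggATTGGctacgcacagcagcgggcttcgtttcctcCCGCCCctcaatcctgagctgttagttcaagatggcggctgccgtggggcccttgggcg
Kpna4: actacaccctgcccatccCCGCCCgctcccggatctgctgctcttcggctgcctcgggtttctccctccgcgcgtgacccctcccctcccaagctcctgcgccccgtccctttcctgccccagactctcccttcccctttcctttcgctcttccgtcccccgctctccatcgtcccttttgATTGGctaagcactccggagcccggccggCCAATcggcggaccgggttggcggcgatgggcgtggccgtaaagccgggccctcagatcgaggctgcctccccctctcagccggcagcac
Xpot: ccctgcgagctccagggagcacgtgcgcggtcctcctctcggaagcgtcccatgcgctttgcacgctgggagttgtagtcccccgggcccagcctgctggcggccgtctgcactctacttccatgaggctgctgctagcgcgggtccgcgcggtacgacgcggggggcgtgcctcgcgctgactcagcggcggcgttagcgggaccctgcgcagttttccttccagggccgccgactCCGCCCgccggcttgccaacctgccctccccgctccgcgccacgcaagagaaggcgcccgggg

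CCGGAAG, a sequence of the kind bound by ETS factors, stood 3 times in the Nup107 window and in neither that of Nup88 nor those of Kpna4 and Xpot. It was present in 8 of the 18 matched members whose mRNA fell from the 1-cell to the 2-cell stage, in 0 of 8 that rose and in 0 of 11 that did not pass the test, against 9.12% of all 27025 promoters. The 8 were Rae1, Nup54, Sec13, Nup37, Nup107, Ipo4, Nup155 and Aaas. The GC box was in 12 of 18, 4 of 8 and 8 of 11, against 35.9% of all promoters, and CCAAT in 7 of 18, 5 of 8 and 5 of 11, against 37.9%. The NRF1 element was in 3 of 18, 0 of 8 and 2 of 11, against 6.43%, and TATAAA in 1 of 18, 0 of 8 and 2 of 11, against 14.2%. The median GC content of the windows was 61.5% for members that fell, 62.8% for those that rose and 52.7% for all promoters. These matches describe letters in the windows and were not tested against chance.

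From the 1-cell to the 2-cell stage, mRNAs of most pore genes fell while those of transport receptors moved in both directions. Of 27 pore genes, 17 were lower, 4 were higher (Ahctf1, Nup214, Tpr and Pom121) and 6 did not pass the test (edgeR's quasi-likelihood test, Benjamini-Hochberg adjusted p under 0.05 over 16264 genes). Of 20 transport genes, 7 were lower, 6 higher and 7 did not pass. The stages differed widely in all genes: 38.1% of genes tested were called higher and 32.0% lower, 70.1% in all. The share called lower was 63.0% of the pore genes and 35.0% of the transport genes, and the share called higher 14.8% and 30.0%. The median log2 change was -1.15 for pore genes and 0.13 for transport genes, beside 0.15 for all genes tested. With library totals in place of TMM scaling, the median of all genes rose to 0.41 and the calls became 7 higher and 17 lower for pore genes and 11 higher and 7 lower for transport genes. In cRPKM, the 4 libraries of the 2-cell stage lay all above those of the 1-cell stage for 17 members and all below for 24, where 43.0% and 28.4% of genes with at least 50 reads in a library did so.

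**Figure D1:**
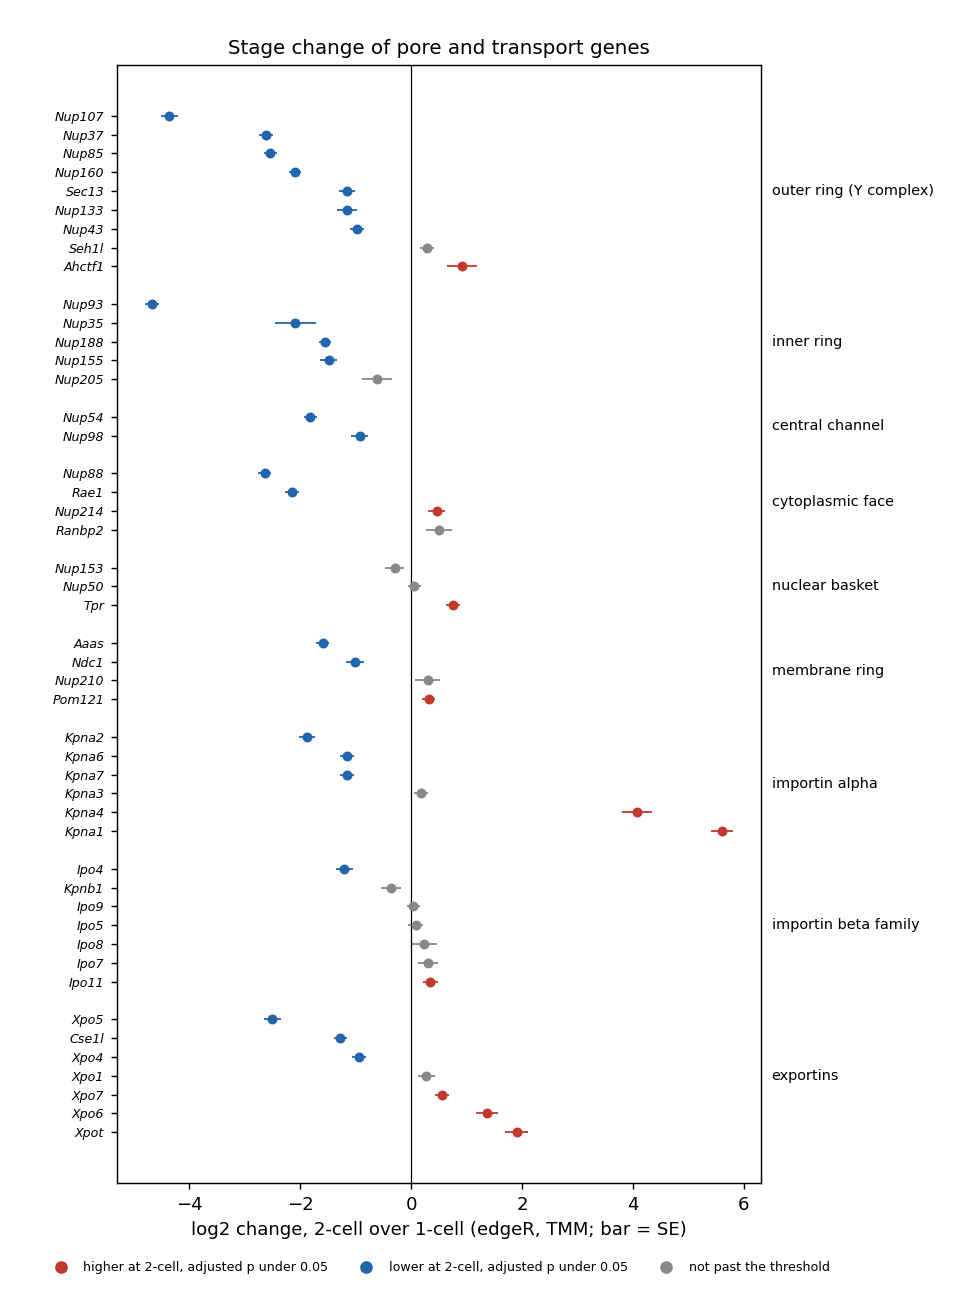
The log2 change in mRNA from the 1-cell to the 2-cell stage (x axis; edgeR with TMM scaling, 4 libraries per stage) is plotted for each of the 47 members, grouped by subcomplex or receptor family, with bars of 1 SE and colours for the call. Nup93 at -4.67 and Nup107 at -4.35 lie farthest to the left, Kpna1 at 5.60 and Kpna4 at 4.07 farthest to the right, and 5 of the 7 importin beta family members are not past the threshold.

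The outer ring, or Y complex, fell in 7 of its 9 members, with a median log2 change of -1.16. Nup107, a core scaffold subunit, stood at 122, 99.98, 105 and 110.4 cRPKM in the 1-cell mCherry, Snrpb, Snrpd2 and combined libraries and at 5.22, 5.83, 7.75 and 7.03 in the corresponding 2-cell libraries. Every 2-cell library lay far below every 1-cell library, a 20.5-fold fall (log2 change -4.35, SE 0.15, adjusted p = 1.67e-08). Nup37, a small subunit on the arm of the Y, was the most abundant pore mRNA at the 1-cell stage and went from 322, 321, 282 and 305 cRPKM to 58.2, 51.8, 69.7 and 61.2, with no overlap (6.13-fold lower, adjusted p = 8.04e-08). Nup85 fell from 219, 237, 226 and 196 to 41.3, 44.5, 49.8 and 45.6 cRPKM (5.80-fold, adjusted p = 5.22e-08). It encodes a subunit of the other arm, and its stages did not overlap either. Nup160, the partner of Nup37 on its arm, fell 4.26-fold, from 35.1 to 48.1 cRPKM at the 1-cell stage to 10.9 to 11.9 at the 2-cell stage. Sec13, which also serves in vesicle coats, fell 2.23-fold, Nup133 2.22-fold and Nup43 1.96-fold.

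The other members of the Y complex were Ahctf1, which rose, and Seh1l, which did not pass. Ahctf1 (ELYS), which brings the Y complex to chromatin when pores assemble after mitosis, stood at 3.80, 6.72, 10.3 and 10.9 cRPKM at the 1-cell and 13.9, 24.3, 11.6 and 18.8 at the 2-cell stage. All 2-cell values were higher, but the lowest of them was close to the highest 1-cell value, and the rise of 1.88-fold (SE 0.27 on the log2 scale, adjusted p = 0.0114) lost its call without the 1-cell mCherry library (adjusted p = 0.0553), without either Snrpb library (0.0726 and 0.068) and with DESeq2 (0.0524). Seh1l, shared with a nutrient-sensing complex, was listed at 18.0 to 23.8 and 28.5 to 32.8 cRPKM without overlap and did not pass (log2 change 0.29, adjusted p = 0.0757), but passed as higher with DESeq2 (0.0406) and without either Snrpd2 library (0.0327 and 0.0318). Levels within the ring spanned 130-fold at the 1-cell stage, from 2.37 cRPKM for Nup133 to 307 for Nup37.

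The inner ring fell in 4 of its 5 members, with a median log2 change of -1.55, and none rose. Nup93, the linker that holds the scaffold together, was at 200.5, 210.4, 219 and 197 cRPKM in the 1-cell libraries in the order above and at 8.42, 9.75, 11.1 and 9.75 in the 2-cell libraries. This was a 25.4-fold fall (log2 change -4.67, SE 0.12, adjusted p = 1.23e-08), in all 4 injections. Nup188 fell 2.93-fold and Nup155 2.80-fold. Nup205, a paralogue of Nup188 that also binds Nup93, had a log2 change of -0.61 and did not pass (adjusted p = 0.061). Its values overlapped, at 2.70 to 5.14 and 2.32 to 4.53 cRPKM. It passed as lower without either Snrpb library (log2 change -0.97 in both, adjusted p = 0.00365 and 0.00345), without the 1-cell mCherry library (0.0499), with no filter on low counts (0.0326) and with no injection term (0.0318). Nup35, a membrane-binding inner ring protein, had 96, 87, 69 and 58 reads at the 1-cell and 20, 17, 16 and 13 at the 2-cell stage, and the length its cRPKM implies is under 0.5 kb, so its cRPKM is not set beside that of other genes. Its reads fell 4.24-fold (SE 0.36 on the log2 scale, adjusted p = 5.12e-04). Summed over the 4 other members, the inner ring went from 235 ± 10.5 to 23.0 ± 1.97 cRPKM (SD, n = 4 libraries per stage), a 10.2-fold fall. Most of the 1-cell sum was Nup93, with means of 207 and 9.76 cRPKM at the 2 stages, so the size of this fall rests mainly on that gene.

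Nup54, a channel nucleoporin with phenylalanine-glycine repeats, fell 3.52-fold, from 118 to 128 cRPKM to 36.0 to 47.3. Nup98, which is found both in the channel and on chromatin, fell 1.90-fold, from 33.4 to 43.6 to 19.5 to 30.3 cRPKM. Both members placed in the channel passed as lower, and Nup58, a channel nucleoporin outside the 48 genes, is described with the companion genes.

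At the cytoplasmic face, the members split. Nup88 went from 269, 262, 265 and 250.2 cRPKM to 46.5, 49.5, 54.6 and 50.7 (6.23-fold lower, adjusted p = 3.23e-08). Rae1, an mRNA export factor, went from 264, 244, 210.0 and 217 to 57.3, 61.7, 69.0 and 64.5 cRPKM (4.43-fold lower, adjusted p = 2.25e-07). Both were among the 3 most abundant pore mRNAs at the 1-cell stage, and neither overlapped between stages. Nup214, the partner of Nup88 in a subcomplex of that face, stood at 72.8 to 109.9 cRPKM at the 1-cell stage and 121 to 183 at the 2-cell stage. Its rise of 1.38-fold passed (adjusted p = 0.0167) but not without the 1-cell mCherry library (0.0579), either Snrpb library (0.118 and 0.104) or either combined library (0.0919 and 0.0717). Ranbp2, the large filament protein that acts as a SUMO ligase, was listed at 0.71 to 1.36 and 1.29 to 2.32 cRPKM and did not pass (log2 change 0.51, adjusted p = 0.0736), but passed as higher with DESeq2 (0.0476) and without either Snrpd2 library (log2 change 0.76, adjusted p = 0.00585 and 0.00519).

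Of the nuclear basket, Tpr rose, and Nup50 and Nup153 did not pass. Tpr, its coiled-coil scaffold, rose 1.69-fold, from 6.34 to 9.90 to 14.8 to 16.5 cRPKM, with no overlap (adjusted p = 4.11e-04). Nup50, which helps release cargo from importin alpha, had a log2 change of 0.06 (adjusted p = 0.638), at 54.4 to 66.3 and 71.6 to 79.1 cRPKM, and Nup153 one of -0.29 (adjusted p = 0.155), at 29.3 to 41.7 and 25.4 to 46.3. Nup153 passed as lower without either Snrpb library (log2 change -0.48, adjusted p = 0.039 and 0.037). Among membrane proteins, Aaas (ALADIN), a partner of Ndc1 at the membrane, fell 3.02-fold and Ndc1, a transmembrane anchor, 2.01-fold. Pom121, a transmembrane nucleoporin of new pores, rose 1.25-fold (adjusted p = 0.0402) and lost that call without the 1-cell mCherry library (0.125), without either Snrpb library (0.186 and 0.174), without either combined library (0.278 and 0.218), without the 2-cell mCherry library (0.089) and with no filter on low counts (0.0905). Nup210, the lumenal ring protein, was at 0.28 to 0.69 cRPKM in all libraries and did not pass (adjusted p = 0.276).

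**Figure D2:**
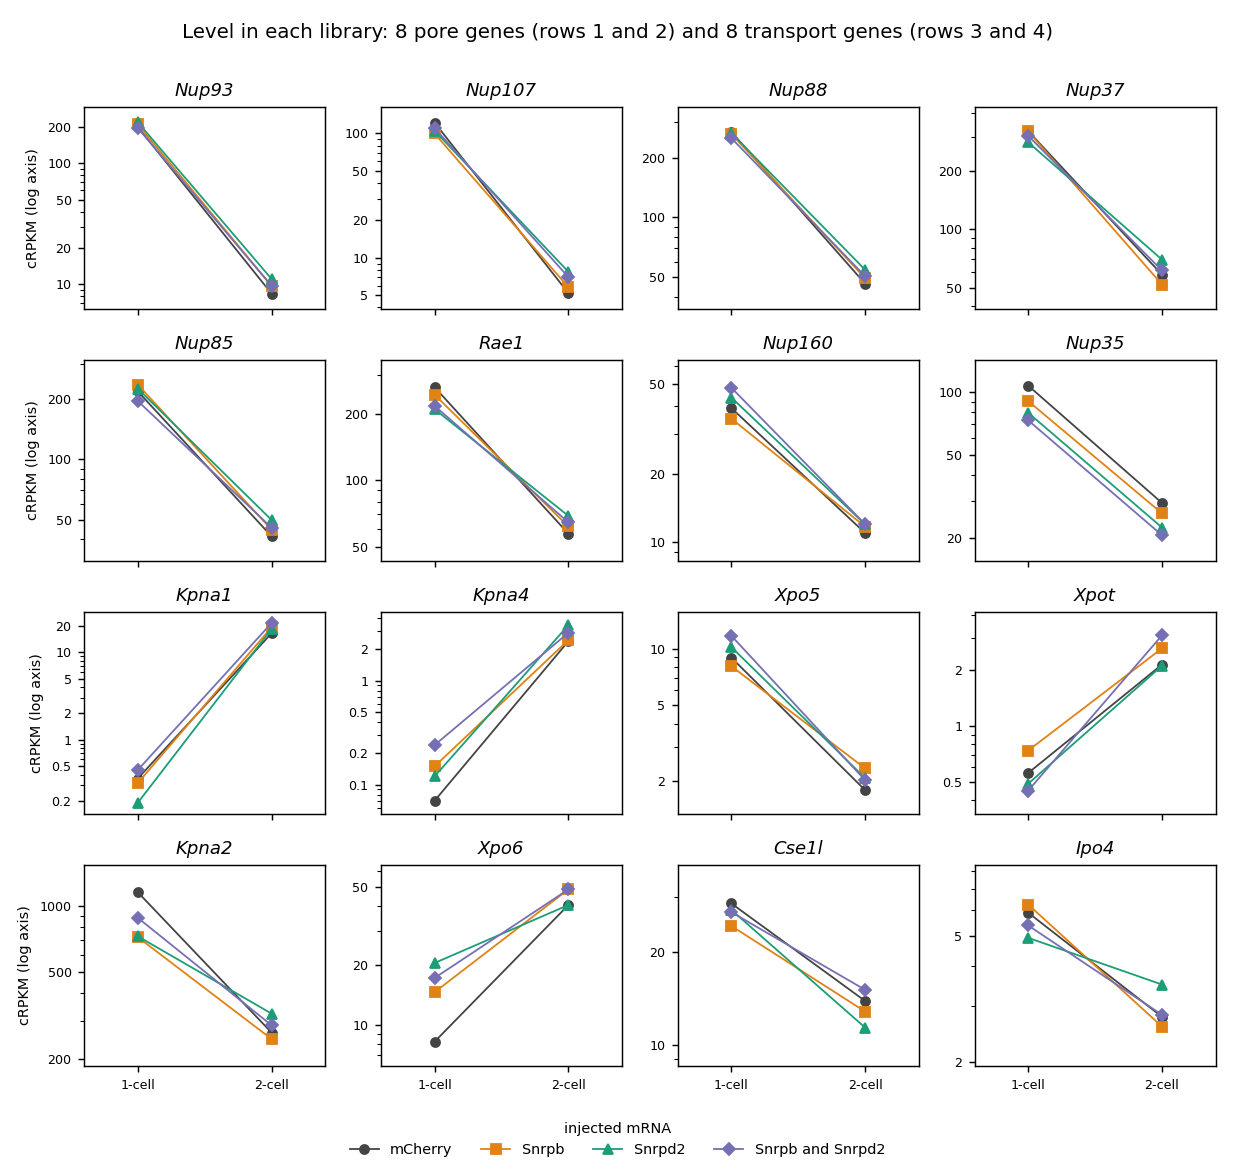
Level in cRPKM (log axis) in the 1-cell and 2-cell library of each injection (lines join the same injection; 1 library per point) for the 8 pore and 8 transport genes with the largest stage changes. In every panel all 4 lines run the same way. At the 1-cell stage the mCherry library stands apart from the Sm libraries for Kpna2 (1160 against 723 to 886) and Xpo6 (8.19 against 14.6 to 20.5). Nup35 rests on 13 to 96 reads per library.

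Importin alpha genes showed the widest range of changes among the members, from 3.67-fold lower to 48.5-fold higher. Kpna1 (importin alpha 5) was at 0.36, 0.32, 0.19 and 0.45 cRPKM at the 1-cell stage (80, 77, 41 and 89 reads) and at 16.4, 19.2, 18.4 and 21.5 at the 2-cell stage (log2 change 5.60, SE 0.19, adjusted p = 1.67e-08). Kpna4 (importin alpha 3) was at 0.07, 0.15, 0.12 and 0.24 cRPKM (33, 80, 57 and 104 reads) and then at 2.39, 2.45, 3.41 and 2.88 (16.8-fold higher, SE 0.26 on the log2 scale, adjusted p = 4.36e-07). Kpna2 (importin alpha 1), the most abundant of all 47 genes, went from 1160, 723, 730 and 886 to 265, 248, 324 and 286 cRPKM (3.67-fold lower, adjusted p = 1.35e-06). Kpna7, an importin alpha of oocytes and early embryos, fell 2.22-fold, from 283 to 374 to 155 to 178 cRPKM, and Kpna6 2.23-fold. Kpna3 did not pass (log2 change 0.18, adjusted p = 0.223), and its libraries did not overlap in cRPKM, at 134 to 169 and 186 to 225.

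The makeup of importin alpha mRNA differed between the stages, with no overlap between libraries in the shares of Kpna2, Kpna3 and Kpna1. Kpna2 took 64.2% ± 3.66 of the summed importin alpha cRPKM at the 1-cell stage and 41.0% ± 3.25 at the 2-cell stage (SD, n = 4 libraries), Kpna3 11.7% ± 2.62 and 30.6% ± 3.50, and Kpna1 0.02% ± 0.01 and 2.75% ± 0.27. The share of Kpna7 was 23.1% ± 1.44 and 24.3% ± 0.70. In cRPKM the sum of the 6 genes went from 1352 ± 236 to 685 ± 29.1.

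**Figure D3:**
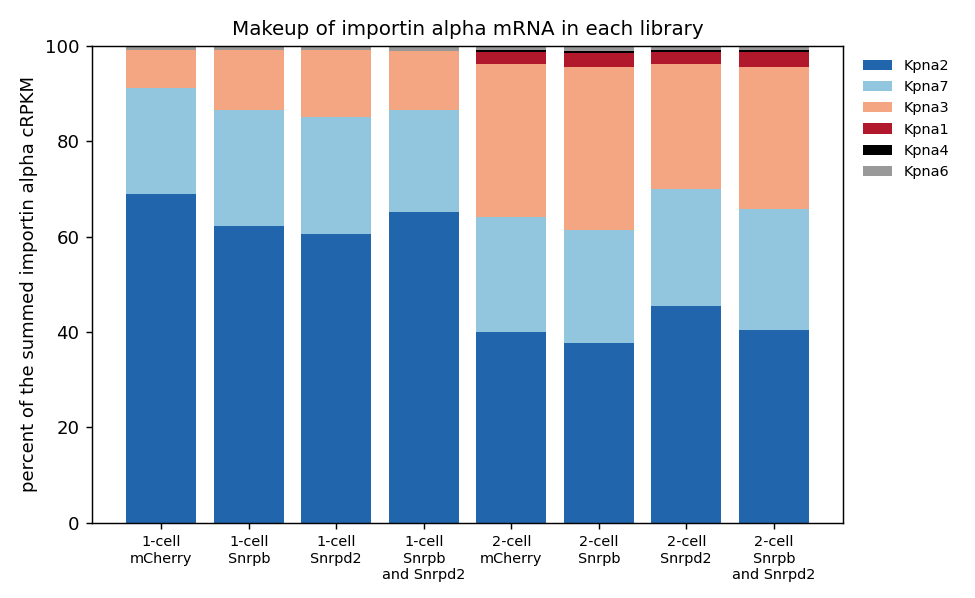
Percent of the summed importin alpha cRPKM that each of 6 genes took in each of the 8 libraries (stacked bars). Kpna2 takes between 60.6% and 69.0% in the 4 1-cell libraries and 37.8% to 45.5% in the 4 2-cell libraries.

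In the importin beta family, 5 of 7 members did not pass, and Kpnb1 (importin beta 1), the partner of importin alpha, had a log2 change of -0.36 (adjusted p = 0.0863). Kpnb1 passed as lower without either Snrpb library (log2 change -0.61, adjusted p = 0.00366 and 0.00369) and with no filter on low counts (0.0481). Ipo4, which carries histones, was the one that fell, 2.30-fold, from 4.92 to 6.26 to 2.59 to 3.51 cRPKM (adjusted p = 6.54e-05). Ipo11 rose 1.27-fold (adjusted p = 0.0387), a call it lost in each of the 8 fits with 1 library left out (adjusted p 0.0888 to 0.156), with no filter (0.0938), and with scaling that leaves out Snrpb, Snrpd2 and the gene with the most reads (0.0533). Ipo5, Ipo7 and Ipo9 had log2 changes of 0.09, 0.30 and 0.04 and did not pass, although their libraries did not overlap in cRPKM. With library totals in place of TMM scaling, Ipo5 (0.0283), Ipo7 (0.0179) and Ipo8 (0.0493) passed as higher. Ipo8, the most abundant of the family, was at 49.3 to 108 and 81.8 to 132 cRPKM and did not pass (log2 change 0.24, adjusted p = 0.349), but passed as higher without either Snrpd2 library (log2 change 0.50 and 0.51, adjusted p = 0.012 and 0.0112).

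Exportins divided evenly, with 3 higher, 3 lower and Xpo1 (CRM1), the exportin of leucine-rich export signals, not passed (log2 change 0.27, adjusted p = 0.131), though it passed as higher without either Snrpd2 library (0.033 and 0.0315). Xpot, which exports tRNA, went from 0.56, 0.74, 0.49 and 0.45 to 2.15, 2.63, 2.12 and 3.09 cRPKM (3.74-fold higher, adjusted p = 1.57e-05). Xpo6, which exports actin with profilin, went from 8.19, 14.6, 20.5 and 17.2 to 40.4, 48.6, 40.5 and 48.5 cRPKM (2.58-fold higher, adjusted p = 1.39e-04). Neither gene overlapped between stages, and the 1-cell mCherry library had the lowest Xpo6 level. Xpo7 rose 1.47-fold (adjusted p = 0.0025). Xpo5, which exports microRNA precursors, fell 5.67-fold (adjusted p = 2.75e-07), from 8.07 to 11.7 to 1.78 to 2.32 cRPKM. Cse1l (CAS), which returns importin alpha to the cytoplasm, fell 2.42-fold, from 24.2 to 28.6 to 11.4 to 15.1 cRPKM (adjusted p = 7.84e-06), and Xpo4 fell 1.91-fold. Xpo6 took 15.3% ± 4.04 of the summed exportin cRPKM at the 1-cell stage and 39.1% ± 0.37 at the 2-cell stage, and Cse1l 27.7% ± 3.90 and 11.7% ± 1.27 (SD, n = 4).

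Pore genes had a lower median stage change than transport genes in each injection. The median log2 change of pore genes minus that of transport genes was -1.09 with mCherry, -1.62 with Snrpb, -1.18 with Snrpd2 and -1.22 with both, a mean of -1.28 ± 0.23 (SD, n = 4 injections). Because the genes were chosen with results known, this difference was given no test. The summed cRPKM of the 26 pore genes other than Nup35 went from 2114 ± 35.6 to 865 ± 51.9, and that of the 20 transport genes from 1582 ± 215 to 968 ± 36.4 (SD, n = 4). Kpna2 and Kpna7 made up most of the transport sum at the 1-cell stage. The sum was 132 ± 27.2 and 169 ± 25.9 cRPKM at the 1-cell and 2-cell stages for the importin beta family and 97.6 ± 12.5 and 114 ± 12.2 for the exportins. The 1-cell sum was 3.22-fold that of the 2-cell stage for the outer ring, 2.42-fold for the central channel and 2.21-fold for the cytoplasmic face. The ratio of 1-cell to 2-cell sums was 1.13 for the membrane ring, and the ratio of 2-cell to 1-cell sums was 1.22 for the basket. Sums of cRPKM are scaled to library totals and not by TMM. TMM factors were 0.87 to 0.95 for 1-cell and 1.07 to 1.13 for 2-cell libraries, so TMM scaling places the 2-cell stage lower. With TMM, the median log2 change was 0.06 for the basket, 0.09 for the importin beta family, 0.27 for exportins and -0.35 for the membrane ring.

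Members with a greater length behind cRPKM lay higher in the stage comparison. What this length counts is not given in the sources used here, and it need not be that of the whole transcript. The length, worked out from reads, library totals and cRPKM for genes of at least 0.5 kb, had a median of 4.47 kb over 46 members. Of the 23 longer members 7 rose and 6 fell (median log2 change 0.09), and of the 23 at or under the median 3 rose and 17 fell (median -1.20). Over all genes tested, the same split gave 988 higher and 965 lower of 2875 longer genes, and 4098 and 4073 of 10773 shorter genes. Across the 46 members Spearman's rho of stage change with length was 0.62 (Pearson's r with log2 length 0.50), and across 13648 genes it was -0.02. These relations are across genes of the same 8 libraries, which are not independent replicates. Nup133, Nup155, Nup160 and Nup188, with 5.63 to 6.35 kb, fell although they are among the longer members.

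**Figure D4:**
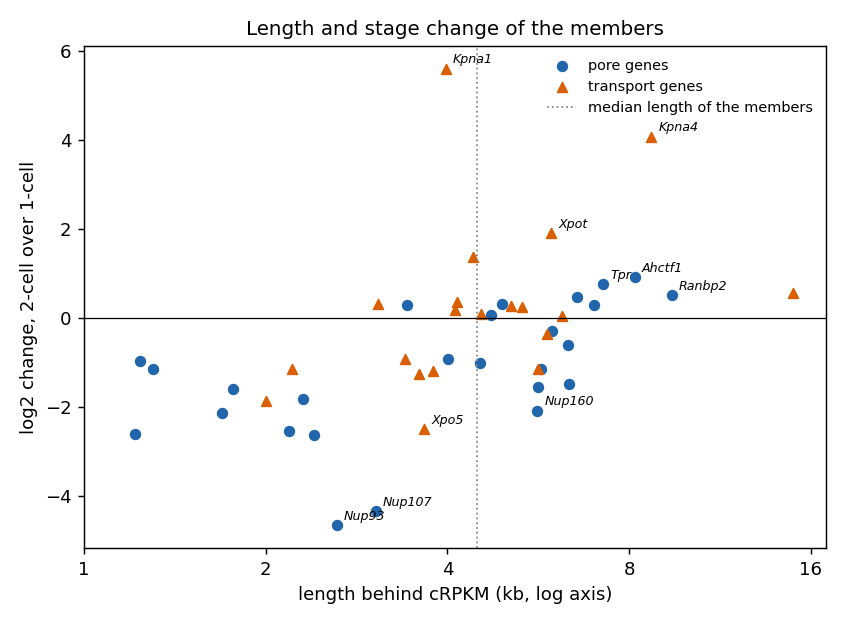
Stage change (log2, edgeR) against the length behind cRPKM (kb, log axis) for 46 members, with pore and transport genes marked and a dotted line at the median of 4.47 kb. Most points to the left of the line lie below 0, with Kpna1 the highest exception, and points to the right lie on both sides.

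No member passed a test of the injected Sm mRNA with edgeR. The 3 Sm libraries were compared with the mCherry library at each stage, and each injection was compared with mCherry over both stages. At either stage edgeR called 0 of 47 members and 0.0% of 16867 genes. At the 1-cell stage 10 members and 2618 genes had an unadjusted p under 0.05, and at the 2-cell stage 1 member and 637 genes. The lone control of each stage was assumed to vary like the Sm libraries. The difference between the stages called 0 members and 0.0% of genes, with 7 members and 1648 genes at an unadjusted p under 0.05. Over both stages, Snrpb and the combination called 0.0% of 16264 genes and Snrpd2 0.00615%, which was 1 gene and no member. For Snrpb, the combination and Snrpd2 in turn, 1, 3 and 1 members and 583, 506 and 497 genes had an unadjusted p under 0.05. The edgeR comparison of Snrpb with mCherry did not call even the injected Snrpb mRNA. That mRNA stood at 7.96 cRPKM with mCherry and 43850 with Snrpb at the 1-cell stage, and at 17.4 and 1704 at the 2-cell stage. The lack of calls among members therefore does not show that the injections had no effect on them. With limma, 0 members passed any of these tests. DESeq2 called 6 of 47 members (12.8%) at the 1-cell stage, where it called 4.22% of 12649 genes. These were 5 higher and 1 lower, against 3.32% and 0.901% of genes. It called no member in the other comparisons.

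Xpo6, the actin exportin, had 1-cell levels of 8.19 cRPKM with mCherry and 14.6, 20.5 and 17.2 with Snrpb, Snrpd2 and both. All 3 Sm libraries lay above the control, by 1.12 on the log2 scale with edgeR (adjusted p = 0.146) and 1.12 with DESeq2 (adjusted p = 1.31e-04). Ahctf1 (ELYS) was at 3.80 cRPKM with mCherry and 6.72, 10.3 and 10.9 in the Sm libraries (edgeR log2 1.32, adjusted p = 0.171; DESeq2 adjusted p = 0.00503). Its ratios of scaled reads to mCherry were 1.89 (95% interval 1.78 to 2.00), 2.79 (2.64 to 2.95) and 2.82 (2.66 to 2.98), intervals that cover counting error only. Kpna4 had 33 reads with mCherry and 80, 57 and 104 in the Sm libraries, with ratios of 2.41 (1.58 to 3.73), 1.82 (1.17 to 2.89) and 3.49 (2.34 to 5.33) (edgeR adjusted p = 0.178, DESeq2 adjusted p = 0.0292). Ndc1 and Ipo8 were higher by 0.68 and 0.89 with edgeR (adjusted p = 0.151 and 0.2; DESeq2 0.0105 and 0.0251). Kpna2 was at 1160 cRPKM with mCherry against 723, 730 and 886, lower by 0.54 (edgeR adjusted p = 0.176, DESeq2 adjusted p = 0.0401). Over the 15 cumulus and granulosa markers tested at this stage, the median log2 difference was 0.77 and edgeR called 0. Tnfaip6 was at 1.17 cRPKM with mCherry and 6.20, 4.23 and 9.11 with Snrpb, Snrpd2 and both. Star went the other way, at 1.41 against 1.36, 0.90 and 0.95. The part of these markers in the members' values was not tested.

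Counted by side, all 3 Sm libraries lay above mCherry for 21 of 47 members at the 1-cell stage and below it for 9, where 31.7% and 38.8% of genes did so. At the 2-cell stage they lay above for 13 of 46 members and below for 4, against 23.0% and 23.0% of genes. The 3 ratios of a stage share 1 mCherry library, so the count leans on it. Nup43, Nup107 and Nup35 were the members farthest from mCherry at the 2-cell stage on 1 side. Nup107 was at 5.22 cRPKM with mCherry and 5.83, 7.75 and 7.03 in the Sm libraries, with ratios of 1.11, 1.40 and 1.32, and was lower in all 3 Sm libraries at the 1-cell stage (0.87, 0.88 and 0.89). The difference between its stages had an adjusted p of 0.467. Nup43 ratios were 0.83, 0.82 and 0.85, and Nup35 had too few reads to order its libraries, with intervals that all held 1.

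**Figure D5:**
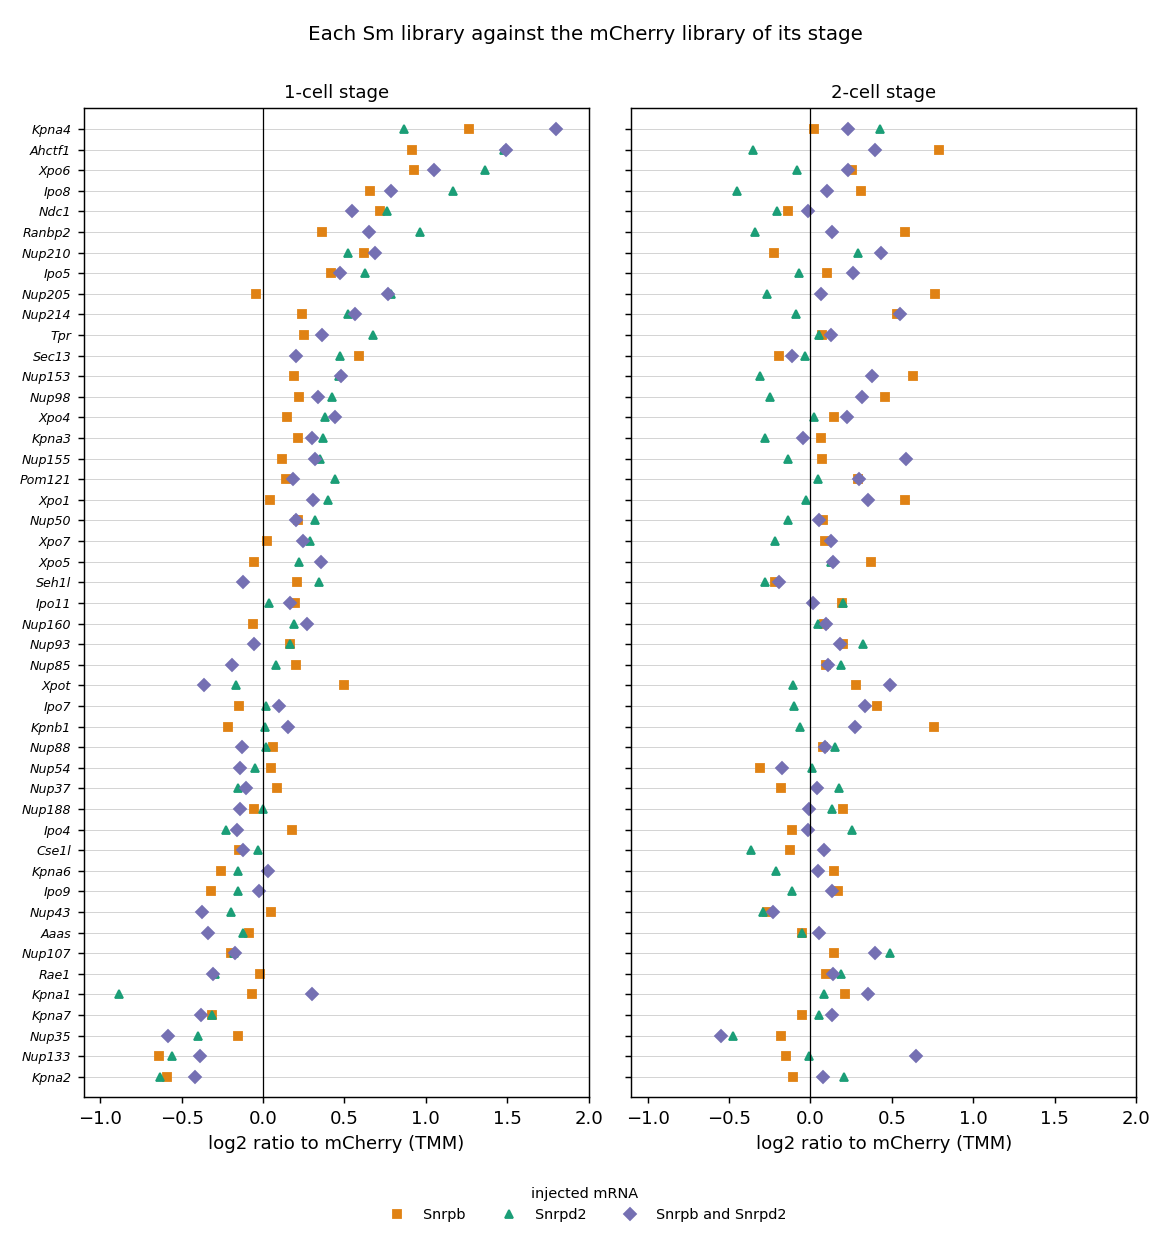
Log2 ratio of each Sm library to the mCherry library of the same stage (TMM scaling; 1 point per library) for the 47 members, ordered by their mean at the 1-cell stage. Kpna4, Ahctf1 and Xpo6 have the highest means at the 1-cell stage and Kpna2 the lowest, and most members at the 2-cell stage have points on both sides of 0.

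For some members, values differed among the Sm libraries of a stage, which with 1 library per condition has no replicate check. At the 1-cell stage Nup205 was at 2.97 and 2.70 cRPKM with mCherry and Snrpb and at 5.00 and 5.14 with Snrpd2 and both. At the 2-cell stage it was 4.53 with Snrpb and 2.64, 2.32 and 2.82 with mCherry, Snrpd2 and both. Nup214 at the 2-cell stage was at 178 and 183 cRPKM with Snrpb and both and at 122 and 121 with mCherry and Snrpd2, and Nup153, Nup98 and Xpo1 had the same order of these pairs. The length behind cRPKM moved with these ratios over all genes: Spearman's rho with length was 0.12, 0.28 and 0.29 for the 1-cell Snrpb, Snrpd2 and combined libraries, 0.27 and 0.21 for the 2-cell Snrpb and combined libraries and -0.17 for the 2-cell Snrpd2 library (13648 genes). Among the 46 members it was 0.27, 0.51, 0.60, 0.41, 0.44 and -0.32 in the same order. The part of length in the members' ratios was not tested.

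Genes that work beside the members changed in both directions between the stages, where 38.1% of all genes tested were called higher and 32.0% lower. Of 6 genes of the Ran cycle 1 rose and 3 fell. Rcc1, the exchange factor that loads Ran with GTP on chromatin, went from 61.4 ± 4.24 to 16.9 ± 2.15 cRPKM (4.37-fold lower, edgeR adjusted p = 3.35e-07), Ranbp3, a cofactor of Xpo1, fell 2.30-fold, and Ran itself had a log2 change of -0.24 (adjusted p = 0.113). Of 5 other nucleoporins 3 rose and 2 fell. Nup210l rose 6.02-fold from 0.04 ± 0.01 to 0.27 ± 0.04 cRPKM, and Nup58, found by its older symbol Nupl1, rose 2.69-fold from 30.5 ± 2.95 to 97.9 ± 5.41, whereas its channel partner Nup54 fell. Of 6 other karyopherins 2 rose and 3 fell, with Tnpo3, an importer of splicing factors with arginine-serine domains, 4.97-fold higher and Snupn, the import adaptor for spliceosomal small nuclear ribonucleoproteins, 3.74-fold lower (28.7 ± 5.89 to 9.10 ± 1.30 cRPKM). Of 16 mRNA export genes 3 rose and 9 fell. Mcm3ap (GANP), which tethers export complexes at the basket, fell 13.0-fold from 23.0 ± 5.85 to 2.10 ± 0.52 cRPKM, and Nxt2, a partner of the export receptor Nxf1, rose 8.85-fold. No gene of these lists passed an injection test with edgeR.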

How the data were processed

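Polyadenylated RNA of 8 pooled embryo libraries (4 injections at 2 stages) had been prepared with a stranded kit, per the labels' protocols. The authors deposited, for each library, reads per gene (counts) and cRPKM, an RPKM value corrected for length. Per the submitters' processing notes, reads were placed on mm9. Aligner, counter and strand setting are not named in those sources, so reads of overlapping, antisense or near-identical genes may be shared. The deposited files pair no names with Ensembl IDs. Symbols came from the GENCODE vM21 annotation, and 1114 of 22667 listed genes had no value. Groups came from the labels.

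Counts were tested with edgeR 4.0.16 in R 4.3.3 (TMM, filterByExpr, quasi-likelihood test, Benjamini-Hochberg over all genes tested, threshold 0.05). The stage was tested with injection as a term, and injections with groups of stage by Sm or mCherry. Each SE is the log2 change divided by the square root of F. Ratios of single libraries carry exact conditional binomial 95% intervals. The edgeR fit was also run on simulated counts with the same spread for all genes and few changed genes. That setting is simpler than these data, and its outcome is not used as support here. DESeq2 1.42.0, limma 3.58.1 on log2(cRPKM + 0.1) or log2(cRPKM + 1), other scalings and filters, and each library left out were alternatives. A count of 3 reads was 0.05 to 0.076 CPM.

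The minimum of 0.5 kb for the length behind cRPKM, which leaves Nup35 out of sums and length relations, was chosen after its values were seen. The members, their classes, companion lists and markers were chosen with earlier results of these data known. Named with full values were, in each class, the 8 largest called stage changes and 3 highest levels, the 3 largest one-sided injection ratios per stage, any member passing an injection test, and members passing no stage test; and 2 genes per companion list with the largest called change. A companion list is not reported here. Coordinates of genes on mm9 were not used here. Figures were drawn with matplotlib in Python.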

Additional observations from a re-analysis of the deposited data

How the results depend on the processing

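Of 34 members called between the stages, 30 kept call and direction under all 17 alternatives. The other four were Ahctf1, Nup214, Pom121 and Ipo11, all called higher. Of 13 members not called, Nup210 and Ipo9 gained no call under any of them. Nup50, Seh1l, Ranbp2, Kpna3, Ipo5, Ipo7 and Xpo1 passed as higher with library totals and with limma at either pseudocount. Pore genes called higher numbered 4 as reported, 7 with library totals and with limma at either pseudocount, and 1 to 6 with a library left out: 1 without the 1-cell mCherry, 1-cell Snrpb or 2-cell Snrpb library and 2 without either combined library. Pore genes called lower numbered 17 to 19 throughout. The pore median was -0.893 with library totals, -0.848 and -0.688 with limma at a pseudocount of 0.1 and 1, and -0.89 as the ratio of stage means in cRPKM. Transport genes called higher numbered 6 as reported, 11 with library totals and 10 with limma at either pseudocount, and their median was 0.39 with library totals and 0.39 with limma at 0.1. The difference between the medians was -1.053 with limma at a pseudocount of 1. DESeq2 called 5 members higher and 1 lower for the injection at the 1-cell stage, where edgeR called 0. The cause of these differences was not tested, except that library totals shift all genes together.

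Changes of sign were seen in members near 0 that were not called: Nup50 (-0.046 and -0.007) and Ipo5 (-0.062 and -0.024) without the 1-cell or 2-cell mCherry library, Ipo8 (-0.028) without the 1-cell mCherry library, and Ipo9 without a filter (-0.014) or without the 1-cell or 2-cell Snrpb library (-0.074 and -0.072). With a library left out, the log2 change ranged up to 0.104 for Nup50, 0.165 for Ipo5, 0.505 for Ipo8 and 0.091 for Ipo9. The median ratio of the 2-cell Snrpd2 library to mCherry was -0.04 as reported and 0.032 with library totals and with cRPKM. With injection as a term, leaving out 1 library leaves its partner of the same injection with no weight in the stage change, so both give nearly the same values. By replicate number, no paired analysis was possible because each group holds 1 library. By injection, the stage fit pairs the 2 libraries of an injection through its injection term, and without that term pore genes called were 4 higher and 18 lower. With 1 library per condition, small changes in rare mRNAs such as Nup35, Nup210 and 1-cell Kpna4 are limited by read number.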

Other observations

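Genes of the nuclear lamina and inner nuclear membrane, which adjoin the pores, changed in both directions between the stages (edgeR, 10 genes: 3 higher, 4 lower, 3 not passed; 38.1% and 32.0% of all genes tested). Lemd3 (MAN1), an inner membrane protein, rose 24.1-fold from 0.15 ± 0.07 to 4.25 ± 0.48 cRPKM (SD, n = 4 libraries; edgeR adjusted p = 1.51e-07). Lmnb2, a B-type lamin, fell 3.65-fold from 0.91 ± 0.26 to 0.30 ± 0.12 (edgeR adjusted p = 7.16e-04). Lmnb1, the other B-type lamin, had a log2 change of 0.14 (adjusted p = 0.366). No gene of this list passed an injection test with edgeR.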
